A study of Mus musculus with 21 samples.

Results

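The PGC-1 coactivators and the estrogen-related receptors (ERRs) were followed through exercise in mouse quadriceps muscle. The group was chosen by gene symbol and holds 8 of the 53738 gene symbols in the expression table. Its members are the coactivator genes Ppargc1a, Ppargc1b and Pprc1, the receptor genes Esrra, Esrrb and Esrrg, the muscle effector gene Perm1 and the corepressor gene Nrip1. Expression is given as TPM, a measure per transcript length that sums to nearly the same total in every library. Bulk RNA-seq was done on 7 groups of 3 C57/Bl6 wild-type male mice aged 22 to 26 weeks. Sedentary mice neither trained nor ran on the treadmill. Trained mice had voluntary access to running wheels for 12 weeks, whereas untrained mice had none. Both ran on a treadmill to exhaustion and had muscle taken directly afterwards (0 h) or 6 h or 72 h later, so that trained muscle without a recent bout is not among the groups.

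PGC-1α, encoded by Ppargc1a, is a transcriptional coactivator. It has no DNA-binding domain of its own and acts by docking on transcription factors, among which ERRα is a main partner in muscle. In skeletal muscle the PGC-1 and ERR proteins drive genes of mitochondrial respiration, fatty acid oxidation and oxidative fibres, and Ppargc1a is a classic exercise-induced gene. The ERRs are orphan nuclear receptors that bind an extended half-site, TNAAGGTCA, without a known natural hormone. Perm1 was named as a muscle gene induced by PGC-1 and ERR, and RIP140, the product of Nrip1, is a corepressor that opposes oxidative gene programs.

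One library limits the 0 h groups. The values labelled untrained 0 h replicate 1 were the same as those labelled trained 0 h replicate 1, including 25037 gene symbols above 0, whereas no other pair of columns shared more than 10 such values. The 21 columns therefore stand for 20 distinct libraries, and to which 0 h group the shared one belongs cannot be told apart. Results at 0 h are given as deposited, and several tests of members again without this library in either group. Shares of summed TPM, marker lists and gene counts at 0 h are as deposited unless stated otherwise. It also counts in both 0 h groups in the fit of all groups, whose pooled spread serves every comparison. Comparisons without a 0 h group were fitted without it only where the model held just the groups compared. Sequencing depth is unknown from TPM. Between 11048 and 11890 symbols per library reached 1 TPM, and transcripts of the mitochondrial genome held 37.7% to 48.0% of the TPM. The summed TPM of 8 skeletal muscle fibre markers, Acta1 and Myh4 among them, lay between 99619 and 134298 in every library. The summed TPM of 5 neutrophil markers was low but above 0, from 0.187 to 1.72 over the libraries. Among them Ly6g was listed at 0 in all sedentary, untrained 0 h, untrained 6 h, trained 0 h and trained 72 h libraries. Mpo was listed at 0 in all sedentary libraries. In bulk muscle, fewer cells of a type and less RNA per cell cannot be told apart.

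Promoter sequence is shown for 4 members whose expression carries the results below. The windows come from the RefSeq promoter table (build GRCm38.p6), run from 250 bases before to 50 bases after an annotated start, and each matched the GRCm39 genome exactly once. Table entries existed for 7 of the 8 members, with 12 windows in all. Esrrg has 4 windows and Esrrb 2, of which the most upstream is shown for each. Letters are in lower case, with capitals for a cAMP half-site (TGACG, or CGTCA on the other strand) or an ERR core (AAGGTCA, or TGACCTT on the other strand). The window of Ppargc1a lies at chr5:51725018-51725317 on the minus strand, that of Esrrg at chr1:187340953-187341252, that of Esrrb at chr12:86407641-86407940 and that of Perm1 at chr4:156300134-156300433, the last 3 on the plus strand (GRCm39).
Ppargc1a: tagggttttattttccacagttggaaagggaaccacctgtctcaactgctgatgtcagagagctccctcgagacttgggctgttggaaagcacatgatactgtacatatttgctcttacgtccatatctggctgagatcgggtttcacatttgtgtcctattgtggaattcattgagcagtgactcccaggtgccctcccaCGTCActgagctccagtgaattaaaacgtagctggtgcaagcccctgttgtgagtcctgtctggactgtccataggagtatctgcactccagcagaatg
Esrrg: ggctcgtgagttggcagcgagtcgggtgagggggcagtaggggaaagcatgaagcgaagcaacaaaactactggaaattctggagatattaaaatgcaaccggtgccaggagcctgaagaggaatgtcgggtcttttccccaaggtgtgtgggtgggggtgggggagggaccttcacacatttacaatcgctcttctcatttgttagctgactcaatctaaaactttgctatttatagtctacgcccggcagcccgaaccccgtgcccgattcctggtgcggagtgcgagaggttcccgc
Esrrb: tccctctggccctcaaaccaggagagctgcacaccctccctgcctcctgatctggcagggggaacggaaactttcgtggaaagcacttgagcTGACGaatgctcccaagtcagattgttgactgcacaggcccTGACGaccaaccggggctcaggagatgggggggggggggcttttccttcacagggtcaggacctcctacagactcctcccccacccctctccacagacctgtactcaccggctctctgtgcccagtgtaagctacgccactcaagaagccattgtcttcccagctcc
Perm1: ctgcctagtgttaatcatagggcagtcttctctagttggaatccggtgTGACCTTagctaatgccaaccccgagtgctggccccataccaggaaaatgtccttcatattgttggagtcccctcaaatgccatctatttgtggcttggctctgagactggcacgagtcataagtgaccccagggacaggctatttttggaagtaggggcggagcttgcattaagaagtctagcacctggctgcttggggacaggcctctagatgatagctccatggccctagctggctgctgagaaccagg

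Both strands of the 12 windows were searched. An ERR core was found once, as TGACCTT at position -202 from the Perm1 start, and 4.72% of all 32851 promoter windows of the table hold one. A cAMP half-site was found once for Ppargc1a, at position -49 from the start in its window, and at positions -158 and -117 in the Esrrb window. It is a short motif that 20.8% of all windows hold. The full ERR element TNAAGGTCA, which contains the core, the full cAMP response element TGACGTCA, which contains the half-site, and the E-box CACGTG were in none of the 12 windows. These were present in 1.28%, 1.79% and 7.15% of all windows. The matches are descriptions of these letters and no test of binding, and sequence outside the windows was not searched. Ppargc1a, at chr5:51611592-51725068, has 14 annotated transcripts in GENCODE with 2 distinct starts of protein-coding transcripts. Of its 7 protein-coding transcripts, 1 starts in the window shown. The promoter at the other coding start was not searched. Gene-level TPM cannot separate transcripts from the alternative starts of Ppargc1a.

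In sedentary muscle, Perm1 and Esrra were the most abundant members. Perm1 was measured at 42.2 TPM ± 3.74 (SD, n = 3) and Esrra at 35.7 TPM ± 1.27. Pprc1 (4.43 TPM ± 1.4), Ppargc1a (3.89 TPM ± 0.739) and Esrrg (3.67 TPM ± 0.484) followed within 1 SD of each other. Ppargc1b, the gene of PGC-1β, stood at 1.77 TPM ± 0.211. The lowest were Esrrb (1.19 TPM ± 0.194) and Nrip1 (1.17 TPM ± 0.123), close to the mean of 1 TPM that a gene needed to be tested. All 8 members passed that filter, which took the mean over all libraries. In GRCm39, Pprc1 lies at chr19:46033325-46061354, Esrra at chr19:6888338-6899336, Esrrb at chr12:86407887-86568409, Esrrg at chr1:187340988-187947082, Perm1 at chr4:156300325-156314305 and Nrip1 at chr16:76084280-76170774. The largest range across the 7 groups belonged to Ppargc1a, whose highest group mean was 10 times its lowest. For Esrrg that ratio was 4.68, for Nrip1 2.49, for Esrrb 2.43, for Perm1 1.84, for Pprc1 1.78, for Ppargc1b 1.5 and for Esrra 1.42.

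**Figure D1:**
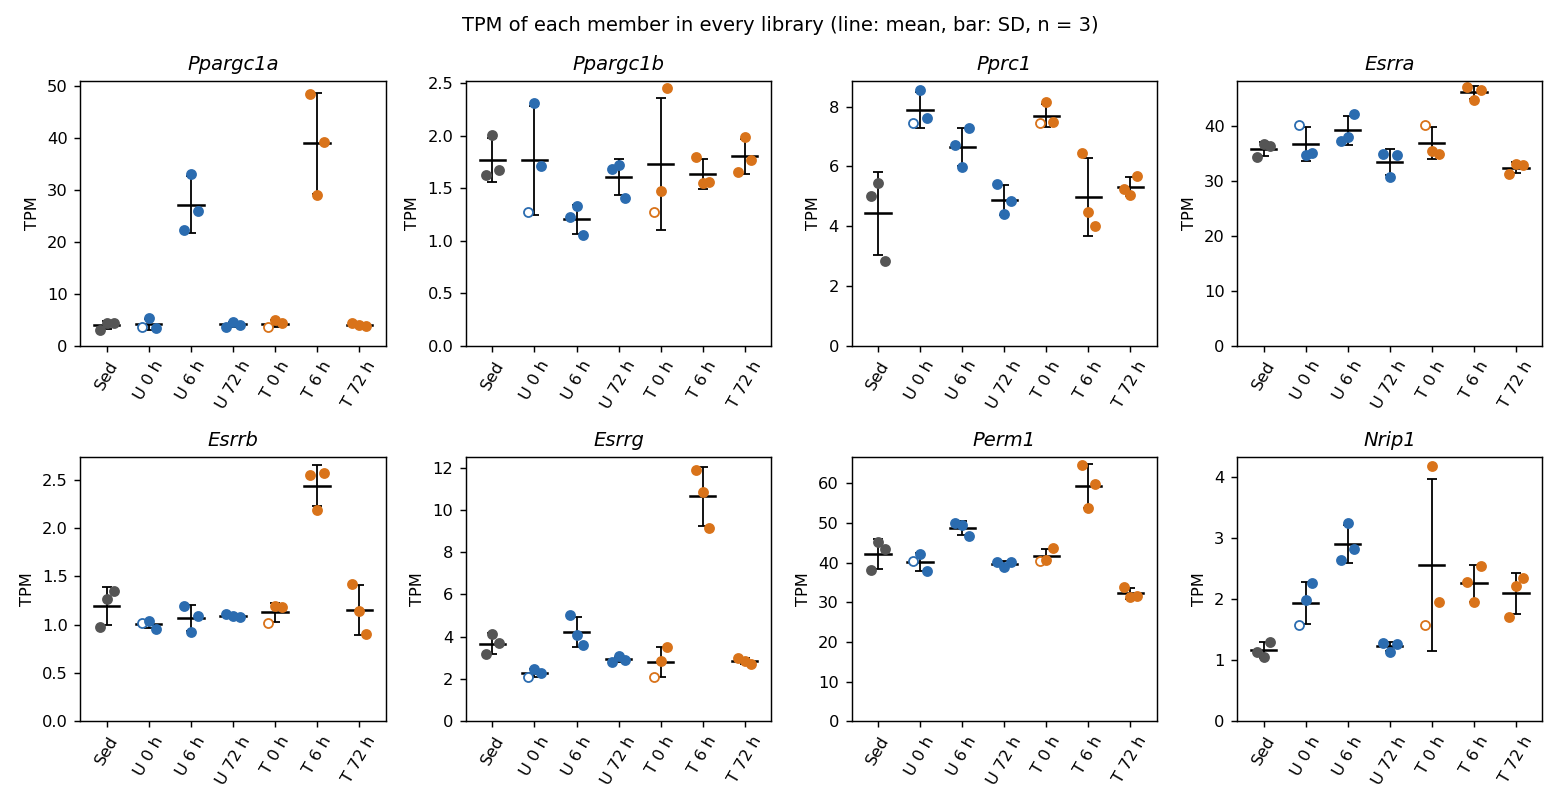
TPM of each of the 8 genes (vertical axes, starting at 0) in sedentary (Sed), untrained (U) and trained (T) muscle, with the hours since exercise on the horizontal axis. Points are libraries, open points are the library held by both 0 h groups, lines are means and bars SDs (n = 3). Ppargc1a was high at 6 h in both trained and untrained muscle. Esrrb and Esrrg were higher in trained muscle at 6 h than in every library of the other groups shown.

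Ppargc1a was higher 6 h after exercise than in sedentary muscle, in untrained and in trained mice. Its 3 sedentary libraries held 3.04, 4.3 and 4.34 TPM. The untrained 6 h libraries held 22.3, 33.1 and 25.9 TPM, and the trained 6 h libraries 48.6, 29.1 and 39.2 TPM. All 6 libraries at 6 h lay far above every library of every other group, which did not exceed 5.25 TPM. The rise over sedentary muscle was 2.65 ± 0.20 (SE) on the scale of log2(TPM + 0.5) in untrained muscle (limma, adjusted p = 2.78e-07) and 3.15 ± 0.20 in trained muscle (adjusted p = 3.97e-07). On this scale, a fold change of a low gene is understated. The means rose 6.96-fold and 10-fold. By log2 fold change Ppargc1a ranked 56th of 11819 tested genes in untrained muscle and 28th in trained muscle. These 2 comparisons share the sedentary libraries. A gene was called when its adjusted p over all tested genes was below 0.05 and its fold change at least 1.5 in either direction. Of 11 tested clock genes, 3 were called higher and 1 lower than in sedentary muscle in untrained muscle at 6 h. In trained muscle at 6 h, 2 were called higher and 1 lower. Of all tested genes, 4.42% and 3.85% were called in these comparisons. The part of the hour of collection in the Ppargc1a difference was not tested.

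Ppargc1a was elevated at 6 h only among the times sampled. Untrained muscle held 3.55, 5.25 and 3.44 TPM at 0 h, where trained muscle held 3.55, 4.84 and 4.33 TPM, the first value of each being the shared library. Untrained muscle held 3.63, 4.53 and 4.0 TPM at 72 h, where trained muscle held 4.37, 4.04 and 3.72 TPM. The 4 groups overlapped the sedentary libraries, and in the order of mean levels no gap between neighbours among them and sedentary muscle exceeded the larger SD of the pair. None of the 4 log2 differences from sedentary muscle, from 0.05 to 0.11, passed the test. At 72 h the 95% interval of the difference ran from -0.36 to 0.48 in untrained and from -0.36 to 0.48 in trained muscle. Against 0 h, the 6 h rise was 2.60 ± 0.20 in untrained (limma, adjusted p = 5.95e-07) and 3.04 ± 0.20 in trained muscle (adjusted p = 6.25e-08). Without the shared library these were 2.52 and 2.93.

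Whether the Ppargc1a peak was higher after training was not resolved. The trained 6 h mean of 38.9 TPM ± 9.75 exceeded the untrained mean of 27.1 TPM ± 5.49, but trained replicate 2 at 29.1 TPM lay inside the untrained range. The log2 difference was 0.50 ± 0.20, with a 95% interval from 0.09 to 0.92 and an adjusted p of 0.177 over all tested genes (limma). It did not pass the test in any alternative processing, with adjusted p from 0.0705 to 0.484, and was 0.33 without trained replicate 1.

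**Figure D2:**
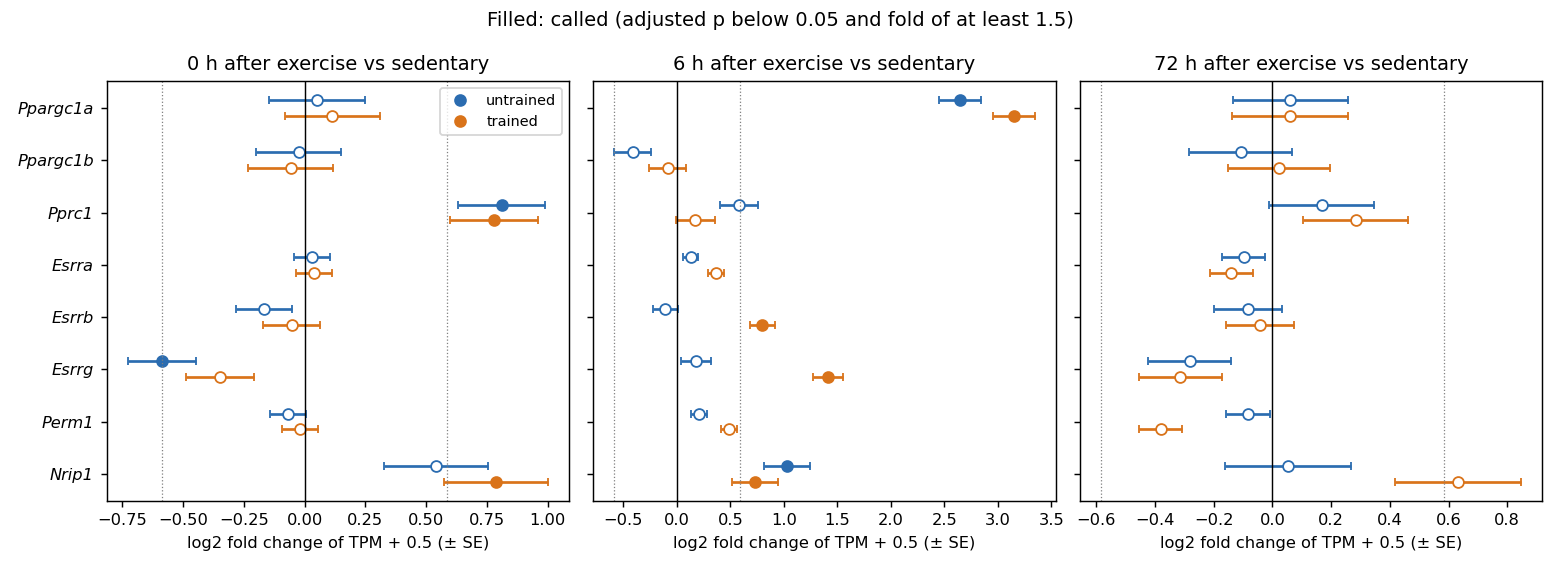
Log2 fold change of TPM + 0.5 against sedentary muscle (horizontal axes, differing between panels) for the 8 genes in untrained and trained muscle at the 3 times after exercise. Points are limma estimates, bars are SE, dotted lines mark a fold of 1.5, and filled points were called. Filled points are Pprc1, Esrrg and Nrip1 at 0 h and Ppargc1a, Esrrb, Esrrg and Nrip1 at 6 h, with none at 72 h.

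The other coactivators did not follow Ppargc1a. PGC-1β is a close relative of PGC-1α that also coactivates ERRs. Ppargc1b measured 1.62, 2.01 and 1.68 TPM in sedentary muscle and 1.23, 1.33 and 1.05 TPM in untrained muscle at 6 h, where all 3 libraries lay below the sedentary ones. The log2 difference of -0.41 ± 0.17 did not pass the test (limma, adjusted p = 0.170). In trained muscle at 6 h, Ppargc1b measured 1.80, 1.55 and 1.56 TPM, overlapping the sedentary range. It was called in none of the 11 comparisons.

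Pprc1 encodes PRC, a PGC-1-related coactivator that behaves as an early-response gene in proliferating cells. It was high directly after exercise. Sedentary libraries held 5.01, 5.44 and 2.83 TPM, untrained 0 h libraries 7.46, 8.58 and 7.64 TPM and trained 0 h libraries 7.46, 8.16 and 7.49 TPM, so that every 0 h library was above every sedentary one. The log2 fold change was 0.81 ± 0.18 in untrained (limma, adjusted p = 0.0105) and 0.78 ± 0.18 in trained muscle (adjusted p = 0.0127). The median of all tested genes was itself shifted by 0.10 and 0.13 in these comparisons, and the share of mitochondrial genome transcripts was 37.7% to 40.6% in the 0 h libraries against 42.2% to 46.9% in sedentary ones. After rescaling TPM without the mitochondrial genome and the 10 most abundant genes, Pprc1 differed by 0.69 (adjusted p = 0.0852) and 0.64 (adjusted p = 0.127) and was no longer called.

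The size of the 0 h difference in Pprc1 also depended on sedentary replicate 3, the lowest library at 2.83 TPM. Without it the log2 fold changes were 0.55 and 0.52, below the fold required, with adjusted p of 0.0263 and 0.0292 (limma). When the model held sedentary and 0 h muscle alone, the adjusted p were 0.162 and 0.163. Under median-of-ratios scaling they were 0.0474, with a difference of 0.72, and 0.0771, with a difference of 0.65. Without the shared library they were 0.85 (adjusted p = 0.0380) and 0.80 (adjusted p = 0.0427). At 6 h Pprc1 stood at 6.71, 5.97 and 7.28 TPM in untrained muscle and at 6.45, 4.48 and 4.01 TPM in trained muscle. The untrained values were above every sedentary library. Their difference of 0.58 ± 0.18 nevertheless missed both the adjusted p (limma, 0.0545) and, narrowly, the required fold. It was called only without sedentary replicate 2 (0.74, adjusted p = 0.0293). With only the groups compared the adjusted p was 0.340. Without sedentary replicate 3 the difference was 0.32. From 0 h to 6 h Pprc1 fell by 0.61 ± 0.18 in trained muscle (adjusted p = 0.0229), where the median of all genes was -0.15. The call was lost in 10 of 16 alternatives, among them without the shared library (-0.63, adjusted p = 0.0592), under median-of-ratios scaling (-0.46, adjusted p = 0.140), after the rescaling (-0.43, adjusted p = 0.207) and without trained 0 h replicate 2 (-0.57, adjusted p = 0.0635). Without trained 6 h replicates 2 or 3 it was lost as well (-0.55 and -0.48, adjusted p = 0.0754 and 0.0937).

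In each muscle the makeup of the PGC-1 transcripts changed with time. In sedentary muscle Ppargc1a held 39% ± 9.06 (SD, n = 3) of the summed TPM of the 3 PGC-1 genes, Pprc1 43.3% ± 10.2 and Ppargc1b 17.6% ± 1.18. At 6 h Ppargc1a held 77.1% ± 4.27 in untrained and 85.3% ± 2.37 in trained muscle, while the summed TPM rose from 10.1 ± 1.5 to 35 ± 5.11 and 45.6 ± 10.9. At 0 h Pprc1 held the largest share, 57.9% ± 4.13 in untrained and 56.5% ± 4.14 in trained muscle. At 72 h the sums were back at 10.5 ± 0.267 and 11.2 ± 0.0860 TPM. These shares are descriptions, without a test.

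**Figure D3:**
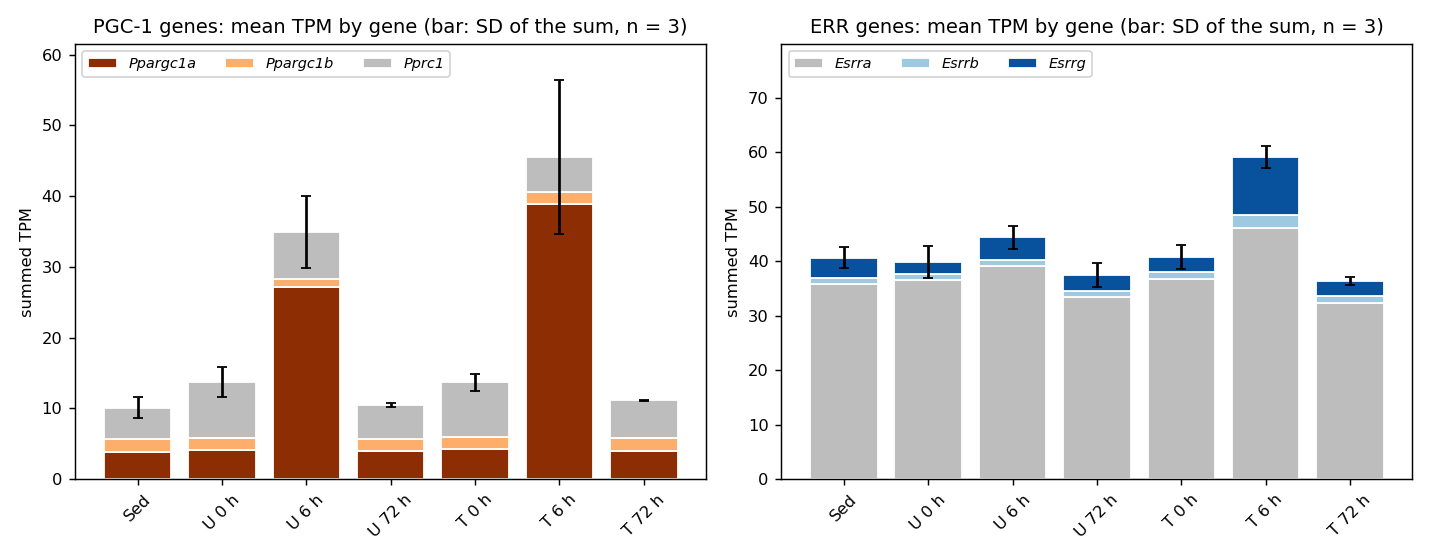
Mean TPM of the 3 PGC-1 genes (left) and the 3 ERR genes (right), stacked, in sedentary (Sed), untrained (U) and trained (T) muscle. Error bars are the SD of the summed TPM (n = 3). Ppargc1a makes up most of the PGC-1 sum at 6 h, and Esrra most of the ERR sum in every group, with the Esrrg segment largest in trained muscle at 6 h.

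Among the receptors, Esrrg was high 6 h after exercise in trained muscle and had the smallest adjusted p of the 8 members between trained and untrained mice. ERRγ is known for its abundance in slow, oxidative fibres. Sedentary libraries held 3.18, 4.14 and 3.70 TPM of Esrrg. Untrained muscle at 6 h held 5.01, 4.07 and 3.60 TPM, overlapping the sedentary libraries, whereas trained muscle at 6 h held 11.9, 10.9 and 9.15 TPM. The 3 trained 6 h libraries were higher than every other library of the study, by a wide gap. Against sedentary muscle the log2 fold change was 1.41 ± 0.14 in trained (limma, adjusted p = 3.10e-05) and 0.17 ± 0.14 in untrained muscle (adjusted p = 0.544, 95% interval -0.13 to 0.48).

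The difference in Esrrg between trained and untrained muscle at 6 h was tested directly. It was 1.24 ± 0.14, a 2.52-fold ratio of mean TPM (limma, adjusted p = 9.18e-05, 95% interval 0.94 to 1.54), and ranked 169th of 11819 genes. It stayed between 1.14 and 1.36 when each library was left out in turn, with adjusted p of at most 0.000871. With only these 2 groups in the model, which leaves 4 residual degrees of freedom, the adjusted p was 0.0741 and the call was lost.

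Ordered by mean level, Esrrg was highest in trained muscle at 6 h, followed by untrained 6 h, sedentary, untrained 72 h, trained 72 h, trained 0 h and untrained 0 h muscle. Between neighbours in this order, the gap exceeded the larger SD of the pair, with no overlap of libraries, between trained and untrained muscle at 6 h and between sedentary and untrained 72 h muscle. The latter difference, -0.28 ± 0.14 on the log2 scale, did not pass the test (limma, adjusted p = 0.885), nor did that of trained muscle at 72 h (-0.31 ± 0.14, adjusted p = 0.411).

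Esrrg was low in untrained muscle directly after exercise. At 0 h it measured 2.09, 2.46 and 2.26 TPM in untrained muscle, all below the sedentary libraries. In trained muscle at 0 h it measured 2.09, 2.83 and 3.52 TPM, overlapping them. The summed TPM of 7 slow-fibre genes was also low in untrained muscle at 0 h, from 267 to 394 against 535 to 1005 in sedentary muscle. In trained muscle at 0 h it was 301 in the shared library and 455 and 697 in the others, overlapping the sedentary range. All 7 genes had negative log2 differences in both comparisons, with medians of -1.09 and -0.55, and 1 was called lower in untrained muscle. Their part in the Esrrg difference was not tested. The untrained difference of -0.59 ± 0.14 passed the test at the edge of the required fold (limma, adjusted p = 0.0178). Without the shared library it was -0.54 (adjusted p = 0.0347), short of that fold. The call was lost in 7 of 15 alternatives, among them without sedentary replicate 2 (-0.51, adjusted p = 0.0971), without sedentary replicate 3 (-0.58, just short of the fold) and without untrained 0 h replicate 3 (-0.59, adjusted p = 0.0510). The trained difference of -0.35 ± 0.14 did not pass (adjusted p = 0.128), and was -0.18 (adjusted p = 0.439) without the shared library. From 0 h to 6 h Esrrg rose by 0.76 ± 0.14 in untrained muscle (adjusted p = 0.00216) and by 1.76 ± 0.14 in trained muscle (adjusted p = 8.28e-07). Without the shared library these were 0.72 and 1.60. With only the groups compared, the untrained rise had an adjusted p of 0.0570.

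Slow-fibre markers and Esrrg went in the same direction between trained and untrained muscle at 6 h, but differed against sedentary muscle. The summed TPM of 7 slow-fibre genes, Myh7 among them, ranged from 535 to 1005 in sedentary muscle, from 246 to 371 in untrained muscle at 6 h and from 380 to 1130 in trained muscle at 6 h. At 6 h, 1 of the 7 genes was called higher in trained than untrained muscle and all 7 had a positive log2 difference, with a median of 1.26. Against sedentary muscle, 0 of the 7 were positive in untrained muscle at 6 h, with a median of -1.23 and 2 called lower. In trained muscle at 6 h, 4 were positive, with a median of 0.13 and 0 called. Of all tested genes, 4.42% and 3.85% were called in these 2 comparisons. In replicate order, the slow-fibre sums were 1130, 380 and 607 TPM in trained muscle at 6 h, 268, 371 and 246 TPM in untrained muscle at 6 h and 593, 535 and 1005 TPM in sedentary muscle, beside the Esrrg levels given above. The trained sums were above the untrained ones, narrowly for replicate 2, and overlapped the sedentary ones. Their part in the Esrrg difference at 6 h was not tested. Mitochondrial genome transcripts held 45.7% to 47.0% of the TPM in trained and 40.6% to 43.7% in untrained libraries at 6 h. After rescaling without them, the Esrrg difference was 1.38 (limma, adjusted p = 0.000217).

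Esrrb, like Esrrg, was high in trained muscle at 6 h, at a lower level. ERRβ is best known from pluripotent cells and the inner ear. Its transcript measured 0.975, 1.26 and 1.34 TPM in sedentary muscle and 1.19, 0.926 and 1.09 TPM in untrained muscle at 6 h. Trained muscle at 6 h held 2.55, 2.19 and 2.57 TPM, above every other library of the study, the next being 1.42 TPM. The log2 fold change over sedentary muscle was 0.80 ± 0.12 in trained (limma, adjusted p = 0.000469) and -0.11 ± 0.12 in untrained muscle (adjusted p = 0.676). Trained exceeded untrained muscle by 0.91 ± 0.12, or 2.28-fold in mean TPM (adjusted p = 0.000261). With only the 2 groups in the model the adjusted p was 0.0617, and when a library was left out it was at most 0.00256. From 0 h to 6 h in trained muscle Esrrb rose by 0.85 ± 0.12 (adjusted p = 0.000122), and by 0.80 without the shared library (adjusted p = 0.00156). At a mean of 1.31 TPM over all libraries, Esrrb would not be tested under a minimum of 5 TPM.

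Esrra, the most abundant ERR gene, moved less. Sedentary libraries held 34.3, 36.6 and 36.3 TPM, untrained 6 h libraries 37.3, 37.9 and 42.1 TPM and trained 6 h libraries 47.0, 44.7 and 46.5 TPM. All trained 6 h libraries were above all sedentary and untrained 6 h ones. The rise over sedentary muscle, 0.36 ± 0.07 on the log2 scale or 1.29-fold, passed the adjusted p alone (limma, 0.00506) and not the required fold. The trained minus untrained difference at 6 h, 0.23 ± 0.07, did not pass (adjusted p = 0.0860). At 0 h and 72 h Esrra differed from sedentary muscle by log2 values from -0.14 to 0.04, and none passed.

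The balance of the ERR transcripts shifted with these changes. Esrra held 88.0% ± 1.06 (SD, n = 3) of the summed ERR TPM in sedentary muscle and 88.0% ± 2.14 in untrained muscle at 6 h, but 77.9% ± 1.75 in trained muscle at 6 h. The Esrrg share was 9.03% ± 0.803 in sedentary, 9.56% ± 1.92 in untrained 6 h and 18.0% ± 1.97 in trained 6 h muscle. The ranges of the last 2 groups, 7.69% to 11.5% and 15.7% to 19.4%, did not overlap. The summed ERR TPM was 40.6 ± 1.91 in sedentary, 44.4 ± 2.11 in untrained 6 h and 59.1 ± 1.97 in trained 6 h muscle. At 72 h the Esrrg share was 7.84% ± 0.842 in untrained and 7.83% ± 0.485 in trained muscle.

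Perm1, the muscle effector that carries an ERR core in the promoter window shown above, was highest in trained muscle at 6 h. It measured 38.1, 45.3 and 43.4 TPM in sedentary muscle, 50.02, 49.5 and 46.8 TPM in untrained muscle at 6 h and 64.7, 53.6 and 59.9 TPM in trained muscle at 6 h. The 3 groups did not overlap. Against sedentary muscle the log2 difference was 0.49 ± 0.07 in trained muscle, or 1.41-fold, which passed the adjusted p alone (limma, 0.000603). In untrained muscle it was 0.21 ± 0.07 and did not pass (adjusted p = 0.0929). Trained exceeded untrained muscle by 0.28 ± 0.07 (adjusted p = 0.0423), with the trained libraries higher in 3 of 3. It did not pass without trained replicate 1 or 3 (adjusted p = 0.181 and 0.117), without untrained replicate 2 or 3 (adjusted p = 0.0974 and 0.128) or with only the groups compared (adjusted p = 0.288).

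Perm1 was also the only member to pass an adjusted p at 72 h. Trained muscle at 72 h held 33.9, 31.4 and 31.5 TPM, below every sedentary library and below the 40.2, 38.9 and 40.0 TPM of untrained muscle at 72 h. The difference from sedentary muscle was -0.38 ± 0.07 (limma, adjusted p = 0.0479), short of the required fold. It did not pass with only the groups compared (adjusted p = 0.206), after the rescaling (adjusted p = 0.153) or when any of 5 of the 6 libraries was left out, with adjusted p from 0.0638 to 0.197. Without sedentary replicate 1 the adjusted p was 0.0323. Other lists moved in trained muscle at 72 h as well. Of 11 tested clock genes 1 was called higher and 1 lower than in sedentary muscle, and all 7 slow-fibre genes had negative log2 differences, with a median of -0.89 and none called. Their part in the Perm1 difference was not tested. The trained minus untrained difference in Perm1 at 72 h, -0.30 ± 0.07, did not pass (adjusted p = 0.0919). From 0 h to 6 h Perm1 rose by 0.51 ± 0.07 in trained muscle (adjusted p = 0.000219). Under median-of-ratios scaling, which moved the median of all genes from -0.15 to -0.01, the rise was 0.66 and reached the fold. In untrained muscle the rise was 0.28 ± 0.07 (adjusted p = 0.0228), and 0.28 with an adjusted p of 0.0638 without the shared library.

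Nrip1, the corepressor gene, was the only member besides Ppargc1a to be called in both trained and untrained muscle at 6 h. Sedentary libraries held 1.14, 1.06 and 1.30 TPM. Untrained 6 h libraries held 2.64, 3.25 and 2.83 TPM and trained 6 h libraries 2.29, 1.95 and 2.55 TPM, both above every sedentary library. The log2 fold change was 1.03 ± 0.22 in untrained muscle (limma, adjusted p = 0.00564) and 0.73 ± 0.22 in trained muscle (adjusted p = 0.0414). The untrained call held in all 14 alternatives, whereas the trained call was lost whenever any of the 6 libraries was left out, with adjusted p from 0.0527 to 0.137. Trained minus untrained muscle at 6 h was -0.30 ± 0.22 and did not pass (adjusted p = 0.495).

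Untrained muscle held 1.57, 1.98 and 2.26 TPM of Nrip1 at 0 h, where trained muscle held 1.57, 4.18 and 1.95 TPM. The trained call of 0.79 ± 0.22 (limma, adjusted p = 0.0306) depended on replicate 2, without which the difference was 0.44 (adjusted p = 0.0791). It was also lost without sedentary replicate 1 or 2 (adjusted p = 0.0922 and 0.114), under median-of-ratios scaling (0.68, adjusted p = 0.0771) and after the rescaling (0.73, adjusted p = 0.128). Without the shared library it was 1.02 (adjusted p = 0.00790). The untrained difference of 0.54 ± 0.22 did not pass (adjusted p = 0.136, and 0.10 without the shared library). At 72 h untrained muscle held 1.28, 1.14 and 1.26 TPM, overlapping sedentary muscle. Trained muscle held 1.72, 2.22 and 2.35 TPM, above every sedentary library, with a difference of 0.63 ± 0.22 that did not pass (adjusted p = 0.249).

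Counted over the 8 members, 2 were called at 0 h in untrained muscle (Pprc1 up, Esrrg down) and 2 in trained muscle (Pprc1 and Nrip1 up), where 3.59% and 3.74% of all tested genes were called. At 6 h, 2 members were called in untrained muscle against 4.42% of all genes, and 4 in trained muscle against 3.85%. By adjusted p alone, 6 of 8 members passed in trained muscle at 6 h, against 10.4% of all genes. Between trained and untrained muscle at 6 h, 2 of 8 were called (2.01% of all genes) and 3 of 8 passed by adjusted p alone (4.56%). From 0 h to 6 h, 2 members were called in untrained muscle (4.64% of all genes) and 3 passed by adjusted p alone (11.7%). In trained muscle 4 were called over this interval (6.46%) and 6 passed by adjusted p alone (25.1%). In this last comparison 179 of all genes rose and 585 fell, and the split became 301 to 347 under median-of-ratios scaling and 406 to 328 after the rescaling. After the rescaling the split of rises to falls moved from 351 to 73 to 257 to 116 at 0 h in untrained muscle, from 401 to 41 to 262 to 87 at 0 h in trained muscle, and from 417 to 105 to 370 to 180 at 6 h in untrained muscle. Between trained and untrained muscle at 6 h it moved from 66 to 172 to 130 to 140, and from 0 h to 6 h in untrained muscle from 241 to 307 to 340 to 253.

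At 72 h none of the 8 members was called in untrained muscle, where 0.00846% of all genes were called, and none had an unadjusted p below 0.05 in limma, against 682 of all 11819 genes. In trained muscle at 72 h none was called against 0.169% of all genes. Of the members 3 had an unadjusted p below 0.05, as did 1379 of all 11819 genes, and 1, Perm1, passed the adjusted p alone (0.254% of all genes). Trained against untrained muscle gave 0 called members at 0 h, where 0% of all genes were called by limma and 143 genes, with 0 members among them, had an unadjusted p below 0.05. As deposited, both 0 h groups hold the shared library, which draws their difference towards 0. The comparison at 0 h therefore cannot show that the groups are alike. It gave 0 called members without the shared library as well, with 2 libraries left per group. At 72 h this comparison gave 0 called members against 0.245% of all genes called. Of the members 2 had an unadjusted p below 0.05, as did 1769 of all genes.

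The 24 listed partners of PGC-1 and ERR proteins, which are transcription factors and cofactors, were all tested. At 6 h 2 of the 24 rose in untrained muscle, Foxo1 and Lpin1, where 4.42% of all genes were called. In trained muscle 2 rose, Ppara and Lpin1, and 1 fell, Thra, where 3.85% were called. PPARα is the fatty-acid-sensing nuclear receptor that PGC-1α coactivates in oxidative tissue. Ppara measured 1.71 TPM ± 0.248 (SD, n = 3) in sedentary, 1.48 TPM ± 0.525 in untrained 6 h and 4.83 TPM ± 0.982 in trained 6 h muscle. It was the only partner called between trained and untrained muscle at 6 h, where 2.01% of all genes were called, with a log2 difference of 1.45 ± 0.23 (limma, adjusted p = 0.00164), and all 3 trained libraries lay above the untrained ones. Lpin1, a phosphatidate phosphatase that also acts as a coactivator with PGC-1α, rose from 43.7 TPM ± 3.69 to 70.0 TPM ± 6.25 in untrained muscle, and its trained level was 82.6 TPM ± 3.57. Foxo1, the forkhead factor of fasting metabolism, rose from 1.24 TPM ± 0.138 to 2.28 TPM ± 0.213 in untrained muscle. Thra, a thyroid hormone receptor gene, fell by 0.69 ± 0.07 on the log2 scale in trained muscle (adjusted p = 3.23e-05). From 0 h to 6 h in trained muscle, Ppara and Lpin1 rose and Thrb, the other thyroid hormone receptor gene, fell by 0.70 ± 0.12 (adjusted p = 0.000662). The median log2 difference of the partners was 0.10 in untrained and 0.07 in trained muscle at 6 h, against 0.01 and -0.01 over all tested genes.

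The 27 listed targets of PGC-1 and ERR, genes of mitochondrial and fatty acid metabolism among them, were all tested. In untrained muscle at 6 h, Ucp3 rose and Ldhb fell, 2 of 27 against the 4.42% of all genes called. There 7 of the 27 had a positive log2 difference, with a median of -0.08 against 0.01 over all genes. Ucp3, the muscle uncoupling protein gene induced with fatty acid supply, went from 29.8 TPM ± 13.2 (SD, n = 3) to 72.3 TPM ± 4.17. Ldhb, the lactate dehydrogenase subunit of oxidative fibres, went from 126 TPM ± 29.6 to 74.7 TPM ± 13.9. None of the 27 was called in trained muscle at 6 h, where 23 had a positive log2 difference with a median of 0.15 against -0.01 over all genes. Between trained and untrained muscle, Ldhb (0.82 ± 0.18, limma, adjusted p = 0.0136) and the myoglobin gene Mb (0.73 ± 0.15, adjusted p = 0.0127) were higher in trained muscle, 2 of 27 against 2.01% of all genes. Of the 27, 25 had a positive difference, with a median of 0.21 against -0.04. The slow-fibre markers given above moved in the same direction in this comparison, and their part in it was not tested.

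**Figure D4:**
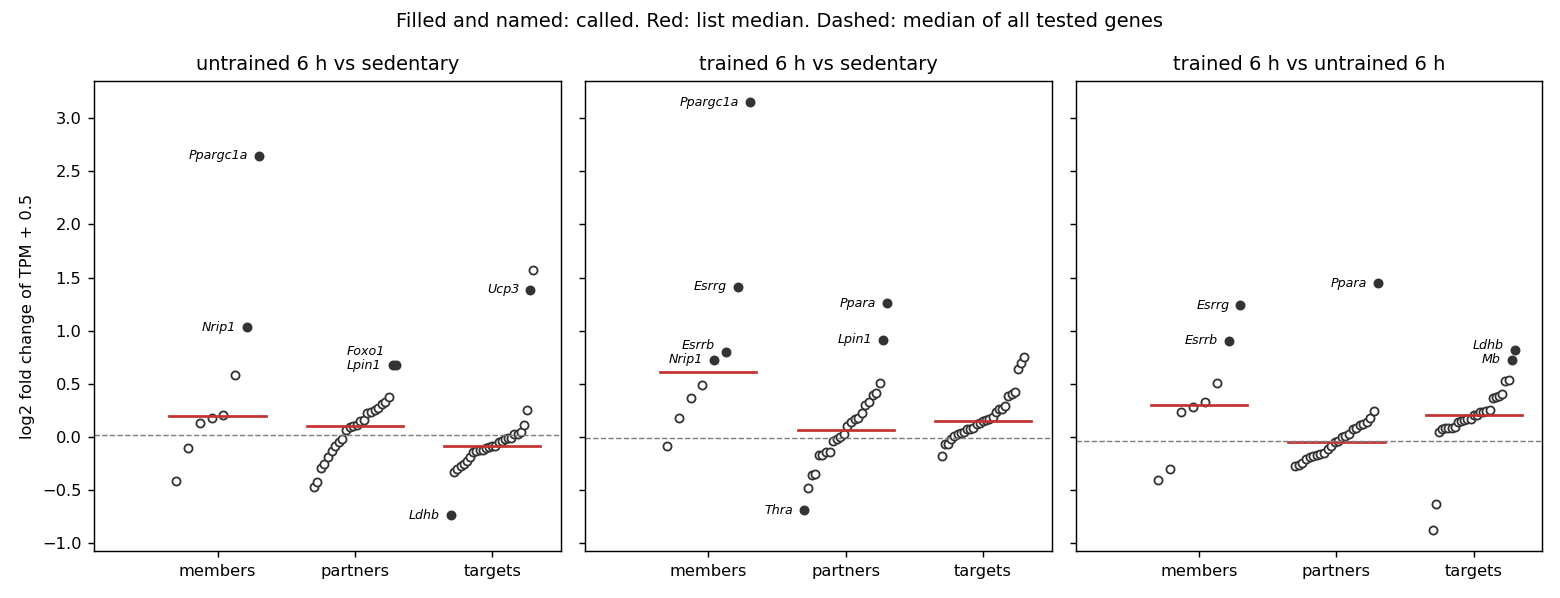
Log2 fold change of TPM + 0.5 at 6 h (vertical axis) for the 8 members, 24 partners and 27 targets, in untrained and trained muscle against sedentary muscle and in trained against untrained muscle. Each point is a gene, filled and named where called, red lines are list medians and the dashed line is the median of all tested genes. Ppargc1a stands highest against sedentary muscle, and Ppara, Esrrg and Esrrb between trained and untrained muscle.

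Genes whose pattern was most like that of Ppargc1a were ranked by Pearson's r of log2(TPM + 0.5) over the 20 distinct libraries, among 9682 other tested protein-coding genes. The 5 closest were Il15ra (r = 0.957, Spearman's rho = 0.717), Slc29a2 (r = 0.952, rho = 0.606), 6430548M08Rik (r = 0.937, rho = 0.776), Ly6c1 (r = 0.936, rho = 0.771) and Hk2 (r = 0.934, rho = 0.774). The likeness rests on the 6 libraries at 6 h, since over the 14 other libraries r with Ppargc1a was 0.30, 0.01, 0.40, 0.38 and 0.35 for these genes in that order. Hk2, the muscle hexokinase gene, went from 49.2 TPM ± 2.15 (SD, n = 3) in sedentary muscle to 129 TPM ± 25.2 at 6 h in untrained muscle, with 135 TPM ± 15.5 at that time in trained muscle. Of the members, Perm1 (r = 0.846) and Esrrg (r = 0.827) were closest to Ppargc1a, at ranks 68 and 92.

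For Esrrg the 5 closest were Ung (r = 0.914, rho = 0.665), Pank1 (r = 0.912, rho = 0.627), Abcb1a (r = 0.910, rho = 0.805), Pfkfb2 (r = 0.900, rho = 0.662) and Esrrb (r = 0.900, rho = 0.663). Without the 6 h libraries, r over the other 14 was 0.16, 0.16, 0.70, 0.25 and 0.61. Pank1, a pantothenate kinase gene of coenzyme A synthesis, measured 3.79 TPM ± 0.224 (SD, n = 3) in sedentary, 5.16 TPM ± 0.289 in untrained 6 h and 9.42 TPM ± 1.66 in trained 6 h muscle. Pfkfb2, a regulator of glycolysis, measured 3.54 TPM ± 0.249, 4.67 TPM ± 0.477 and 7.14 TPM ± 0.550. These correlations are descriptions over libraries that share groups and scaling, with no test.

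Other marker lists differed between the 6 h groups as well. The summed TPM of the 8 muscle fibre markers ranged from 99619 to 109023 in trained and from 114244 to 121174 in untrained muscle, without overlap, with 1 of 8 log2 differences positive and none called. That of 7 endothelial markers ranged from 61.14 to 72.5 in trained and from 50.8 to 61.12 in untrained muscle, with all 7 differences positive and none called. All 5 tested adipocyte markers had positive differences, with none called and sums of 35.6 to 92.6 against 24.5 to 108 TPM. The summed TPM of 9 macrophage markers ranged from 38.6 to 81.1 in untrained and from 36.0 to 52.4 in trained muscle at 6 h, against 43.1 to 47.6 in sedentary muscle, and 2 of the 7 tested were called lower in trained than untrained muscle. The summed TPM of 12 clock genes and outputs ranged from 87.9 to 108 in untrained and from 68.3 to 87.9 in trained muscle at 6 h, against 120 to 134 in sedentary muscle. In trained against untrained muscle at 6 h, 1 of 11 tested clock genes was called, lower. The part of these markers in the differences between members was not tested, and the hour of collection of each group is not given in the sources used here.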

How the data were processed

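RNA-seq libraries were prepared from total RNA of crushed quadriceps with the TruSeq RNA kit v2, and the authors mapped reads to GRCm39 with STAR and quantified them with salmon 1.5.0. The deposited values are TPM per gene symbol; per the labels, STAR was version 2.7.9, and DESeq2 is named without a stated role. TPM was used as deposited. Depth is unknown, so that precision rests on the spread between libraries within groups, 3 per group. The fit pooled that spread over the 7 groups and moderated it across genes. The p-values are relative to this pooled spread and not to that of the 2 groups compared. Values were transformed to log2(TPM + 0.5), and 11819 genes whose mean reached 1 TPM were fitted with limma 3.58.1 in R 4.3.3 (7 group means, 14 residual degrees of freedom, variance trend), with Benjamini-Hochberg adjustment over all tested genes in each of 11 comparisons. The procedure was tested on simulated data. Members and lists were chosen with earlier results of these data known. Named genes are all members, called genes of the partner and target lists, and the 5 genes most correlated with Ppargc1a and Esrrg. Alternatives were pseudocounts of 0.1 and 1, no filter, a filter at a mean of 5 TPM, median-of-ratios scaling, TPM rescaled after removal of 42 symbols (mitochondrial genome and the 10 highest genes), only the groups compared, no variance trend, the replicate number as a block, no shared library, and each library left out in turn. Fits without the shared library or without a single library were used only for comparisons that include a group holding it. Annotation was GENCODE M39. A further list, of repressors, is not reported here.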

Additional observations from a re-analysis of the deposited data

Results flagged for a closer look

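By adjusted p alone in limma, 3 of 8 members differed between trained and untrained muscle at 6 h. Of all tested genes, 4.56% passed in this way. Both groups differ from the same sedentary libraries, and no trained muscle without a recent bout was measured, so that the change from a trained resting level was not tested. Esrrg was higher in trained muscle by 1.24 ± 0.14 on the log2 scale (adjusted p = 9.18e-05) and Esrrb by 0.91 ± 0.12 (adjusted p = 0.000261), each with all 3 trained libraries above all 3 untrained ones. Perm1 was higher by 0.28 ± 0.07 (adjusted p = 0.0423), less than the fold required for a call, also without overlap. With only the groups compared, all 3 missed the limma adjusted p (Esrrg 0.0741, Esrrb 0.0617 and Perm1 0.288). Perm1 also missed it with some single libraries left out and with the replicate block.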

How the results depend on the processing

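Of 18 calls of members, 9 held in every alternative that gave a value for that member and comparison. They were Ppargc1a in the 4 comparisons of 6 h with sedentary or 0 h muscle and Nrip1 in untrained muscle at 6 h. The others were Esrrb and Esrrg in trained muscle at 6 h against sedentary and 0 h muscle. Esrrb, Esrrg and Nrip1 were not tested at a minimum mean of 5 TPM. The fit without the shared library was not used for 6 h against sedentary muscle. Of 1316 values of single members under alternatives, 1202 kept direction and call, 42 lost and 3 gained a call, and 69, of 25 pairs of member and comparison, changed sign. These 25 differences were at most 0.25 in size as reported, with adjusted p of at least 0.608, and none of the 69 passed the test. A minimum mean of 5 TPM left 4 members tested and gave 1 called in untrained and 1 in trained muscle at 0 h, 1 in each at 6 h, 0 between trained and untrained muscle at 6 h, and 1 and 2 from 0 h to 6 h in untrained and trained muscle. With only the groups compared, 0 members were called at 0 h in untrained or trained muscle, 0 between trained and untrained muscle at 6 h and 1 from 0 h to 6 h in untrained muscle. At 0 h in untrained muscle, 1 was called with a pseudocount of 1, 1 after the rescaling and 1 without the shared library, and 0 to 2 with a library left out. At 0 h in trained muscle, 1 was called without a filter, 0 under median-of-ratios scaling and 0 after the rescaling, and 1 to 2 with a library left out. These counts stand without the share of all tested genes called under each setting. A lower count is therefore not a result about the members. Deviations of same-numbered libraries of different groups from their group means had a median r of 0.02 over 62 pairs, from -0.12 to 0.13. For differently numbered libraries the median was -0.005 over 126 pairs, from -0.38 to 0.25. The numbers were not used as pairs in the reported fit, and whether they mark a shared batch was not tested. The replicate block changed no call, though Perm1 then missed the adjusted p in trained minus untrained muscle at 6 h (0.0657) and in trained muscle at 72 h (0.0682), and Esrrg in trained minus untrained muscle at 6 h stayed at 1.24 (adjusted p = 0.000361). The low level of Esrrb and Nrip1, near 1 TPM, the lack of read counts and 3 libraries per group limit how small a difference could be seen.

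Under median-of-ratios scaling the values of changed sign were Ppargc1a -0.037 and Esrra -0.069 in untrained muscle at 0 h, Ppargc1a -0.0054 and Esrra -0.094 in trained muscle at 0 h, Esrra -0.025 in trained minus untrained muscle at 0 h, Ppargc1a 0.079, Esrra 0.045 and Esrrg 0.043 in trained minus untrained muscle at 72 h and Ppargc1b 0.095 and Nrip1 0.067 in trained muscle from 0 h to 6 h. After the rescaling the values of changed sign were Ppargc1a -0.11 and Esrra -0.14 in untrained muscle at 0 h, Ppargc1a -0.058 and Esrra -0.15 in trained muscle at 0 h, Esrrb 0.022 in trained muscle at 72 h, Esrra -0.0088 in trained minus untrained muscle at 0 h, Ppargc1a 0.11, Esrra 0.071 and Esrrg 0.072 in trained minus untrained muscle at 72 h and Ppargc1b 0.16 and Nrip1 0.13 in trained muscle from 0 h to 6 h. Without the shared library the values of changed sign were Ppargc1b 0.14 and Esrra -0.037 in untrained muscle at 0 h and Ppargc1b 0.091, Esrra -0.024 and Perm1 0.00069 in trained muscle at 0 h. With single libraries left out, in untrained muscle at 0 h, Ppargc1a lay from -0.12 to 0.15, Ppargc1b from -0.19 to 0.14 and Esrra from -0.037 to 0.068. In trained muscle at 0 h, Ppargc1a lay from -0.034 to 0.22, Ppargc1b from -0.28 to 0.091, Esrra from -0.024 to 0.075, Esrrb from -0.15 to 0.011 and Perm1 from -0.091 to 0.032. In trained muscle at 6 h, Pprc1 lay from -0.088 to 0.33. In untrained muscle at 72 h, Ppargc1a lay from -0.088 to 0.14 and Pprc1 from -0.093 to 0.32. In trained muscle at 72 h, Ppargc1a lay from -0.088 to 0.14, Ppargc1b from -0.036 to 0.097 and Esrrb from -0.15 to 0.072. In trained minus untrained muscle at 0 h, Ppargc1a lay from -0.035 to 0.24, Ppargc1b from -0.25 to 0.14, Pprc1 from -0.071 to 0.026, Esrra from -0.054 to 0.076 and Nrip1 from -0.11 to 0.48. In trained minus untrained muscle at 72 h, Ppargc1a lay from -0.068 to 0.074 and Esrrb from -0.071 to 0.16. In trained muscle from 0 h to 6 h, Ppargc1b lay from -0.18 to 0.19 and Nrip1 from -0.30 to 0.29.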
